A study of Mus musculus with 6 samples.

Results

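The matrix metalloproteinases (MMPs), their tissue inhibitors (TIMPs) and the ADAMTS proteases that are not known chiefly as versican cleavers were followed in the auditory nerve of Vcan knockout mice; Vcan encodes versican, a large proteoglycan of the extracellular matrix. The genes were taken by symbol from the deposited gene table: every Mmp gene, Timp1 to Timp4 and every numbered Adamts gene except the versican-cleaving Adamts1, Adamts4, Adamts5, Adamts8, Adamts9, Adamts15 and Adamts20. This gave 39 of 24062 genes, of which 23 encode MMPs, 4 encode TIMPs and 12 encode ADAMTS proteases. RNA sequencing was done on 3 nerve samples of young adult Vcan knockout mice and 3 of young adult wildtype mice. Both groups carry the strain label C57BL/6, and the wildtype mice are called C57BL/6J in the design text. Each sample joined the nerves dissected from both cochleae of 1 mouse, so each library stands for 1 animal. How the Vcan allele was made, in which cells it acts, and whether the wildtype mice were littermates is not stated in the labels.

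MMPs are zinc-dependent proteases that are made as inactive precursors and cut collagens, laminins, proteoglycans and cell-surface proteins once their propeptide is removed. ADAMTS proteases are secreted relatives with thrombospondin repeats that anchor them in the matrix, and they process procollagens, proteoglycans and matrix glycoproteins. TIMPs bind the active site of these enzymes, and TIMP3, which itself binds to the matrix, also inhibits several ADAMTS proteases. In peripheral nerve the system is known for remodelling the basal lamina and matrix around axons and Schwann cells, above all after injury.

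The libraries held between 74530860 and 92513887 counts. Vcan itself was at 5.44, 2.70 and 2.88 CPM (counts scaled to library size, with TMM factors) in knockout nerve, against 8.36, 9.61 and 7.32 CPM in wildtype nerve, without overlap (adjusted p = 0.558 in edgeR and 0.0342 in DESeq2). Defining markers of spiral ganglion neurons and Schwann cells were all detected. The 8 neuron markers summed to between 11601 and 13065 CPM in knockout nerve and to between 6884 and 12083 CPM in wildtype nerve, the lowest in wildtype replicate 3. The 6 Schwann cell markers, myelin protein zero among them, summed to between 7558 and 10547 CPM in knockout nerve and to between 7300.1 and 13089 CPM in wildtype nerve. All 6 astrocyte and all 6 oligodendrocyte markers had negative fold changes (knockout over wildtype, median log2 −0.69 and −0.46), with overlapping sums. The 5 endothelial markers, 3 with positive and 2 with negative fold changes, summed to 196 to 209 CPM in knockout nerve. Their wildtype sums, 171 to 178 CPM, did not overlap these. Wildtype replicate 3 correlated less with the other libraries (at most 0.966 on log2 CPM) than any of the others did with its closest partner (at least 0.989). Some genes were far higher in that library. Lrp2 was at 2289 CPM there and at most 408 CPM in any other library, and Slc45a2 at 124 CPM and at most 17.9 CPM. In bulk tissue, fewer cells of a type and less RNA per cell cannot be told apart.

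For most of these genes the knockout and wildtype libraries overlapped, and the share without overlap was near that of all genes tested. Adamts12, a protease of cartilage oligomeric matrix protein, was lower in every knockout library than in any wildtype library. DESeq2 called Adamts12 and edgeR did not. The macrophage elastase gene Mmp12 was lower and the stromelysin gene Mmp11 higher in every knockout library than in any wildtype library. Neither passed in edgeR, or in DESeq2 with all libraries. Of the 39 genes, 29 had enough counts to be tested. None of the 29 passed in edgeR's quasi-likelihood test at a Benjamini-Hochberg adjusted p under 0.05. Of the 16722 genes tested, 0.138% passed, 0.0658% as higher and 0.0718% as lower in knockout nerve. At an unadjusted p under 0.05 there were 3 (Adamts12, Mmp12 and Mmp11), against 5.2% of all genes tested. DESeq2 called 2 of the 39 genes, against 1.36% of the genes to which it gave an adjusted p: Adamts12 as lower, with 0.707% of genes, and Adamts13 as higher, with 0.653%. The authors' deposited table calls 1, Adamts12, against 1.34% of its genes with an adjusted p. Neither gave an adjusted p to Mmp3, Mmp21, Mmp27 or the 5 genes with 0 counts in all libraries, which the 39 include. The groups did not overlap for 4 of the 29 genes, or 13.8%, near the 10.3% of all genes tested. Mmp11 and Timp1 were higher without overlap, as were 5.42% of all genes, and Adamts12 and Mmp12 lower, as were 4.93%. The median log2 fold change of the 29 genes, knockout over wildtype, was −0.06, beside −0.01 for all genes tested. Of the 29, 13 had a positive and 16 a negative fold change, and 20 lay within 0.5 of 0.

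**Figure D1:**
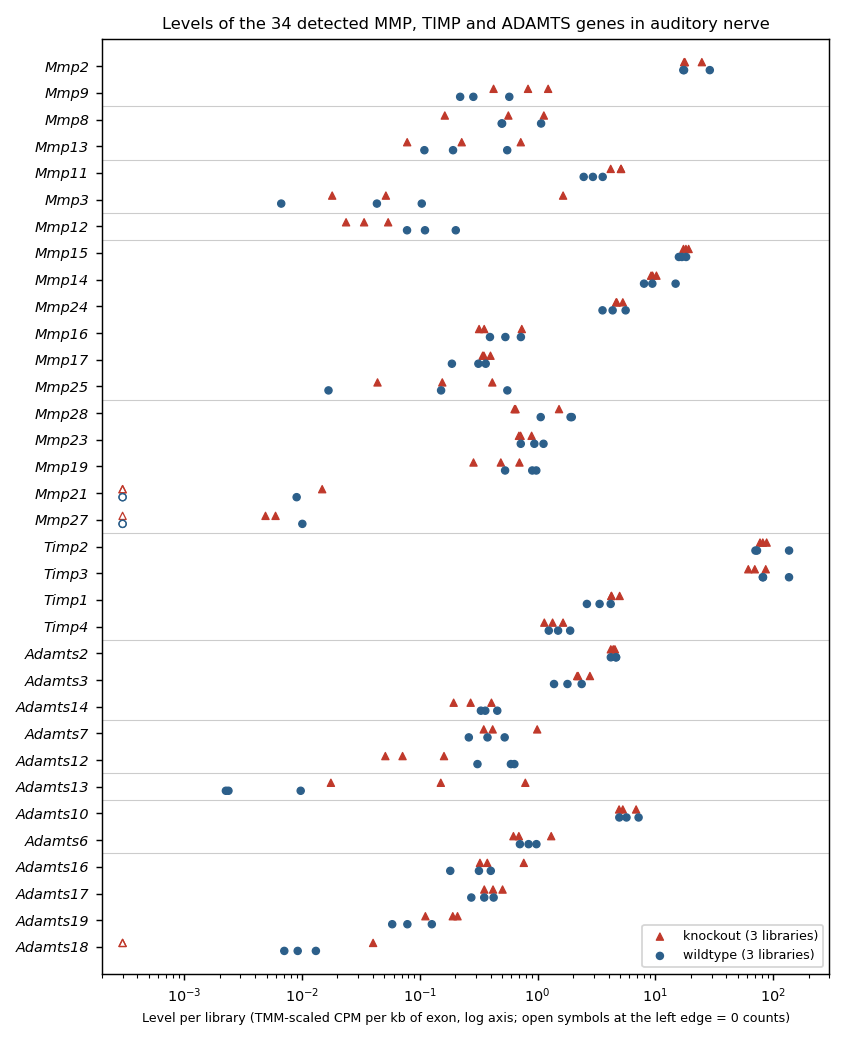
Level of each of the 34 detected genes in each library, in CPM per kilobase of exon on a log axis, with knockout libraries as red triangles and wildtype libraries as blue circles. The 2 inhibitor genes Timp2 and Timp3 lie at the right, at 72.6 to 99.96 CPM per kilobase on average in either group, and open symbols at the left edge mark libraries with 0 counts.

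**Figure D2:**
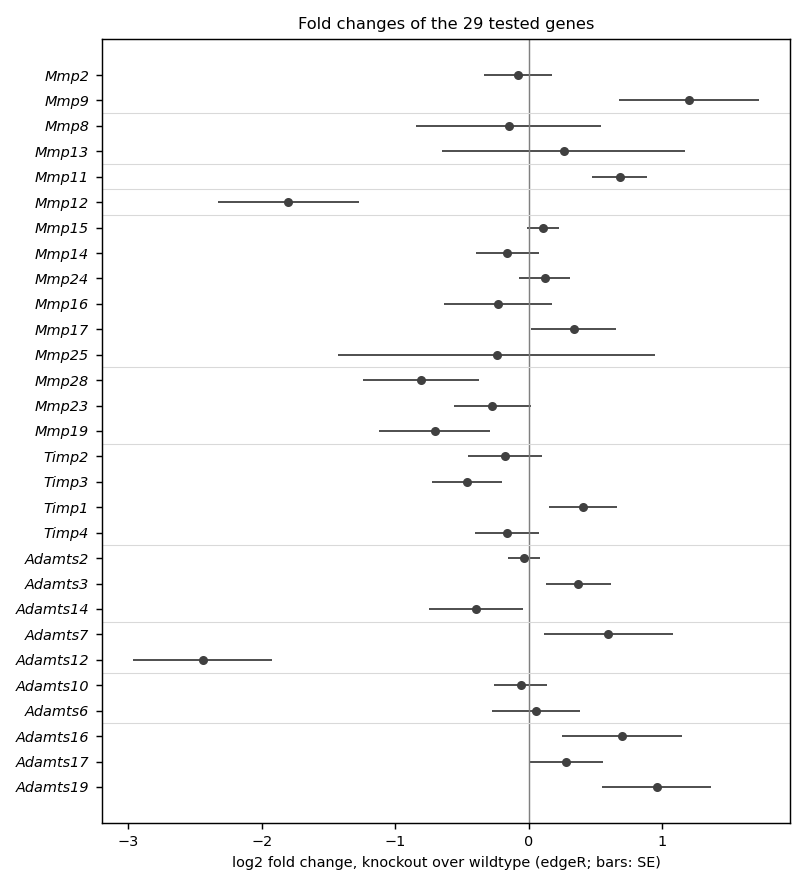
Log2 fold change of knockout over wildtype for the 29 tested genes, grouped by role, with bars for the standard error of edgeR's fit. Adamts12 (−2.44) and Mmp12 (−1.80) lie farthest to the left and Mmp9 (1.20) farthest to the right.

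Per kilobase of exon, the inhibitors outweighed the enzymes. The 4 TIMP genes summed to 170, 164 and 149 CPM per kilobase in knockout nerve, against 157, 161 and 277 in wildtype nerve. The 23 MMP genes summed to 71.3, 59.7 and 58.5 in knockout nerve, against 58.3, 56.4 and 72.5 in wildtype nerve. The 12 ADAMTS genes summed to 19.3, 13.6 and 14.1 in knockout nerve, against 17.4, 14.6 and 13.4 in wildtype nerve. The groups overlapped for each of these 3 sums. The TIMP sum of wildtype replicate 3 lay far above the 5 others. Timp2 and Timp3 each exceeded 97.8% of the 19133 detected genes with an exon length in level per kilobase, Mmp2 exceeded 87.0% and Mmp15 84.6%. At the other end, Mmp1a, Mmp1b, Mmp7, Mmp10 and Mmp20 had 0 counts in all 6 libraries. A count of 0 allows up to 0.0324 to 0.0403 CPM per library (3 counts of the library total, for counting error only).

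Among the gelatinases, which degrade denatured collagen and basement membrane collagen, Mmp2 was the abundant one. Mmp2 was at 83.6, 59.1 and 60.0 CPM in knockout nerve and at 59.0, 58.2 and 97.6 CPM in wildtype nerve. One library of each group stood high, knockout replicate 1 and wildtype replicate 3, and the remaining 4 lay within about 2 CPM of each other. Mmp14, the membrane-type protease that activates pro-MMP2 at the cell surface in a complex with TIMP2, was at 56.4, 60.8 and 54.8 CPM in knockout nerve. It was at 47.7, 56.1 and 88.5 CPM in wildtype nerve, again highest in wildtype replicate 3. The log2 fold changes were −0.08 (SE 0.25) for Mmp2 and −0.16 (SE 0.24) for Mmp14, and without wildtype replicate 3 they were 0.20 and 0.14. The direction of both thus rested on that library, in which the neuron and Schwann cell marker sums were also lowest (6884 and 7300.1 CPM). The part of cell content in these values was not tested.

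Mmp9, the other gelatinase, is made by neutrophils, osteoclasts and activated macrophages. It was at 4.35, 2.94 and 1.50 CPM in knockout nerve and at 1.01, 0.779 and 2.04 CPM in wildtype nerve. Knockout replicates 1 and 2 lay above all wildtype libraries, and knockout replicate 3 lay among them. The log2 fold change was 1.20 (SE 0.53), the highest of the 29, and did not pass (edgeR, unadjusted p = 0.0582). DESeq2 called Mmp9 only when wildtype replicate 3 was left out (log2 fold change 1.71, SE 0.52, adjusted p = 0.0432). That was the highest wildtype library for Mmp9, so leaving it out widens the difference by itself, and the call adds no support. The 7 neutrophil markers in the table summed to 124, 142 and 72.4 CPM in knockout nerve, against 17.97, 24.3 and 52.0 CPM in wildtype nerve. All 7 had positive fold changes, with none at 0 counts. Ltf, the lactoferrin gene, made up most of the sum in knockout replicate 1 (121 CPM), where S100a8 was at only 0.62 CPM. The 6 osteoclast markers summed to between 22.2 and 26.0 CPM in knockout nerve and between 17.3 and 27.8 CPM in wildtype nerve, most of it from Ctsk. All 4 that were tested had positive fold changes. Dcstamp, a gene of osteoclast fusion, was at 0.659, 0.552 and 0.348 CPM in knockout nerve, against 0.0600, 0.0111 and 0.129 CPM in wildtype nerve. Its groups did not overlap, and its adjusted p was 0.509 in edgeR and 0.0357 in DESeq2. The part of either cell type in the Mmp9 values was not tested.

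The collagenases cut the intact triple helix of fibrillar collagens. Mmp8, the neutrophil collagenase, was at 0.395, 2.74 and 1.37 CPM in knockout nerve and at 1.21, 1.20 and 2.60 CPM in wildtype nerve. Its lowest and its highest library were both knockout, and the groups overlapped. In knockout replicate 1, Mmp8 and S100a8 were both at their lowest, while Ltf and Mmp9 were at their highest. Mmp13, the collagenase of cartilage and bone, was at 1.92, 0.607 and 0.209 CPM in knockout nerve and at 1.48, 0.512 and 0.292 CPM in wildtype nerve. In each group replicate 1 was the high library, and the log2 fold change of 0.26 (SE 0.91) was far smaller than the spread. Neither direction was stable: without knockout replicate 1 the log2 fold changes were 0.30 for Mmp8 and −0.89 for Mmp13, and without wildtype replicate 3 they were 0.31 and −0.13.

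Mmp11, or stromelysin-3, is unusual in being activated inside the cell by furin and is known from stromal cells around remodelling tissue (chromosome 10, 75923221 to 75932502, GRCm38). It was at 11.6, 14.2 and 14.2 CPM in knockout nerve and at 6.84, 9.91 and 8.19 CPM in wildtype nerve. All knockout libraries lay above all wildtype libraries, and knockout replicates 2 and 3 were nearly equal. The mean was 13.3 ± 1.49 CPM in knockout nerve and 8.31 ± 1.54 CPM in wildtype nerve (SD, n = 3 each). The log2 fold change was 0.68 (SE 0.20), with an unadjusted p of 0.0132 and an adjusted p of 0.644 in edgeR, and DESeq2 gave an adjusted p of 0.14. Leaving out each library in turn gave 0.56 to 0.83 in edgeR. DESeq2 called Mmp11 only without knockout replicate 1 (0.77, SE 0.24, adjusted p = 0.0408). That was the lowest knockout library for Mmp11, so this call adds no support. Mmp11 shares 5.58% of its exonic bases with Chchd10, which was at 186 ± 51.6 CPM in knockout nerve and 167 ± 28.6 CPM in wildtype nerve (SD, n = 3 each). Whether strand was used in counting is not given in the sources used here, so reads from the shared stretch cannot be told apart.

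Mmp3, or stromelysin-1, stood high in 1 library. It had 225 counts in knockout replicate 1 (2.97 CPM), but 3 and 8 counts in knockout replicates 2 and 3 and 1, 7 and 16 counts in the wildtype libraries. The gene was too low in the other 5 libraries to be tested, and the knockout mean of 1.03 CPM describes no second animal.

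Mmp12, which degrades elastin and is made mainly by macrophages, lies on chromosome 9 (7344397 to 7360461, GRCm38). It was at 0.171, 0.390 and 0.244 CPM in knockout nerve (13, 36 and 21 counts), against 0.564, 0.801 and 1.46 CPM in wildtype nerve (47, 72 and 125 counts). All knockout libraries lay below all wildtype libraries, which differed among themselves more than 2-fold. The log2 fold change was −1.80 (SE 0.53), with an unadjusted p of 0.0121 and an adjusted p of 0.631 in edgeR, and an adjusted p of 0.105 in DESeq2. Leaving out each library in turn gave −2.18 to −1.35. The 7 macrophage and microglia markers were also lower in knockout nerve in sum, at 143, 145 and 113 CPM against 172, 160.0 and 156 CPM in wildtype nerve, with no overlap. Of those 7 markers 5 had negative fold changes, their median was −0.21, and none was at 0 counts. Singly, the groups did not overlap for only 1 of the 7, or 14.3%, beside 10.3% of all genes tested. At an unadjusted edgeR p under 0.05 there were 0 of the 7, beside 5.2% of all genes tested. The part of these cells in the Mmp12 difference was not tested.

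**Figure D3:**
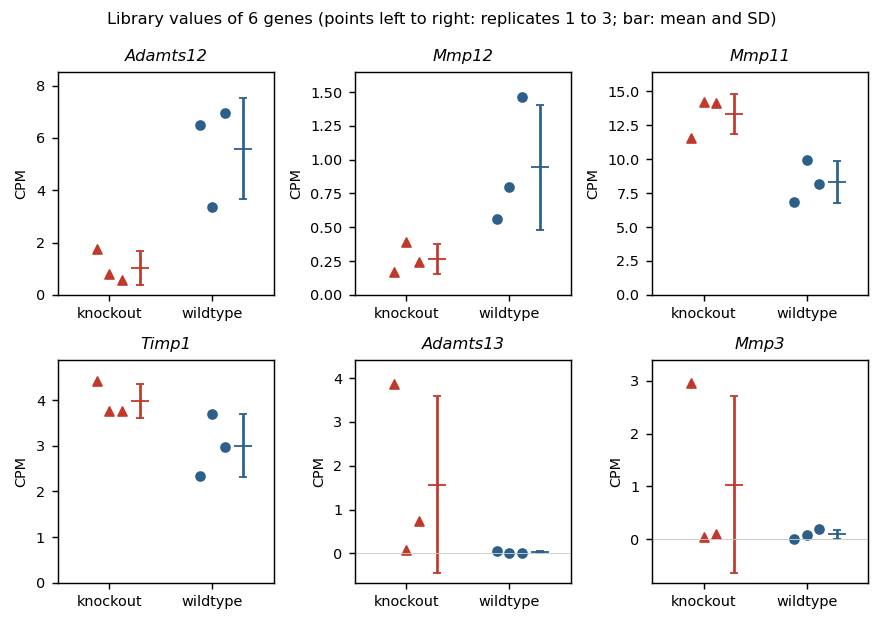
CPM of 6 genes in each library, knockout (red triangles) left of wildtype (blue circles), with bars for the mean and SD of 3 libraries. Adamts12 and Mmp12 were lower and Mmp11, Timp1 and Adamts13 higher in all knockout libraries than in any wildtype library, while Mmp3 was high in knockout replicate 1 alone and as low in the other knockout libraries as in the wildtype ones.

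Of the 23 MMP genes, 10 lie side by side in 0.427 Mb of chromosome 9 (7272514 to 7699585, GRCm38), with no other gene of the table between them. The cluster, which holds the collagenases, Mmp3, Mmp10, Mmp12, Mmp7, Mmp20 and Mmp27, was low in the nerve but not uniformly so. All 5 genes with 0 counts belong to it, while Mmp8 ranked 16 of the 39 genes in level per kilobase. Its highest value in any library was 2.97 CPM, and 3 of its 10 genes were tested (Mmp8, Mmp12 and Mmp13). Of the 13 MMP genes elsewhere, 12 were tested.

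Promoter sequences from RefSeq (GRCm38.p6, 250 bases before to 50 after an annotated start) were matched for 29 of the 39 genes, including all 10 of the cluster. They are shown because the cluster shares letters in its promoters that are rare in those of the other members. The letters TGAGTCA, a known binding sequence of the transcription factor AP-1, were searched on both strands, where they read TGACTCA on the other. They occurred in 7 of the 10 cluster promoters and in 0 of the 19 others, against 5.95% of 27025 genes with a promoter. TATAAA, the core of a TATA box, was searched on both strands (TTTATA on the other) and occurred in 9 of the 10 cluster promoters and in 1 of the 19 others, against 15.7% of all genes. The 2 motifs share no bases in these promoters. The stretches of Mmp1a and Mmp1b below are nearly the same, so the cluster promoters are not independent of each other. As they are shown for these shared letters, the counts are a description and not a test. The 80-base stretches below run 5′ to 3′ along the gene and have both motifs in capitals.
Mmp13 (chr9:7272469-7272548, plus strand): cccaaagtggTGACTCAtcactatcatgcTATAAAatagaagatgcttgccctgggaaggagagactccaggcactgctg
Mmp12 (chr9:7347320-7347399, plus strand): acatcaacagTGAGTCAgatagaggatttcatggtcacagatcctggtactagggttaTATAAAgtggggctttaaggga
Mmp3 (chr9:7445766-7445845, plus strand): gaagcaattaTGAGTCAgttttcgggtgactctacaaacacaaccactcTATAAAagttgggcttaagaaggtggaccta
Mmp10 (chr9:7502269-7502348, plus strand): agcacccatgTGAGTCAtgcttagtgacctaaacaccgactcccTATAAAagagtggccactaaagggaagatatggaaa
Mmp1a (chr9:7464058-7464137, plus strand): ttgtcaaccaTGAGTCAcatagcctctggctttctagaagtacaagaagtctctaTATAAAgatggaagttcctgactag
Mmp1b (chr9:7388050-7388129, minus strand): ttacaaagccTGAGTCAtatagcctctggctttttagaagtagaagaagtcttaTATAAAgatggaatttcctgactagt
Mmp7 (chr9:7692017-7692096, plus strand): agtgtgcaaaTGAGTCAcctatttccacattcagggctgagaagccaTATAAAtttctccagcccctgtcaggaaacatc
In each stretch the AP-1 letters stand first and TATAAA follows after 12 to 41 bases. Counted from the annotated start, TATAAA began at −29 in Mmp10, −28 in Mmp1a and −26 in Mmp7. It began at −49 in Mmp1b, −16 in Mmp13, −7 in Mmp3 and, past the start, at 5 in Mmp12. Its distance from the annotated start thus differed between the genes. In Mmp13 the AP-1 letters read on the other strand, and the Mmp12 stretch belongs to the second of its annotated starts. Mmp8, the highest of the cluster on average, was not among the 7, and 4 of the 7 (Mmp1a, Mmp1b, Mmp7 and Mmp10) had 0 counts in all libraries. A match of letters does not show binding.

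**Figure D4:**
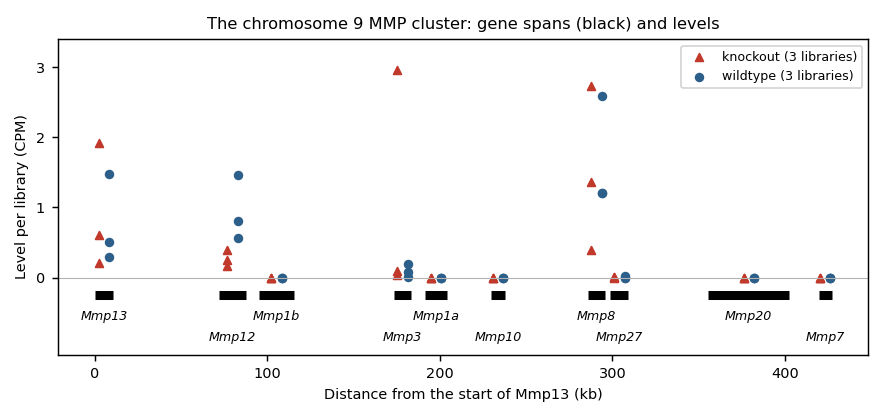
The 10 MMP genes of the chromosome 9 cluster by their distance in kilobases from the start of Mmp13 (black bars), with the CPM of each above it in knockout (red triangles) and wildtype libraries (blue circles). Values above 0.5 CPM are seen for Mmp13, Mmp12, Mmp8 and, in knockout replicate 1, Mmp3.

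The membrane-type MMPs sit at the cell surface through a transmembrane segment or a lipid anchor, and all 6 were tested. Mmp15 was the most abundant, at 103, 93.4 and 98.0 CPM in knockout nerve and at 98.4, 90.5 and 85.4 CPM in wildtype nerve. The groups overlapped and the libraries were close, with a log2 fold change of 0.10 (SE 0.12). The 6 log2 fold changes of this class ran from −0.24 to 0.33. The least precise of them was Mmp25 (SE 1.19), a protease of leukocytes, at 2.19, 0.823 and 0.232 CPM in knockout nerve and at 0.804, 0.0890 and 2.94 CPM in wildtype nerve. Among the MMPs outside these classes, Mmp28, or epilysin, known from healing skin, was at 5.89, 2.47 and 2.52 CPM in knockout nerve and at 7.38, 4.12 and 7.56 CPM in wildtype nerve. Knockout replicates 2 and 3 lay below all wildtype libraries, and knockout replicate 1 among them. Its log2 fold change was −0.81 (SE 0.43, edgeR, unadjusted p = 0.106), and DESeq2 called it only without knockout replicate 1 (−1.36, SE 0.36, adjusted p = 0.0097). Leaving out the 1 knockout library that lay among the wildtype values widens the difference by itself, so that call adds no support. Mmp28 shares 12.03% of its exonic bases with 1700020L24Rik, which was at 3.36 ± 0.289 CPM in knockout nerve and 4.93 ± 0.461 CPM in wildtype nerve (SD, n = 3 each). 1700020L24Rik was thus also lower in knockout nerve, without overlap. Mmp19 was at 2.48, 1.72 and 1.01 CPM in knockout nerve and at 3.44, 3.18 and 1.87 CPM in wildtype nerve, with a log2 fold change of −0.71 (SE 0.42). The groups overlapped, and 28.3% of its exonic bases are shared with the genes Tmem198b and Gm47093. Tmem198b was at 15.5 ± 0.955 CPM in knockout nerve and 17.3 ± 0.578 CPM in wildtype nerve (SD, n = 3 each), lower without overlap. Reads from the shared stretches of Mmp28 and Mmp19 cannot be told apart either. Mmp23 averaged 1.80 ± 0.250 CPM in knockout nerve and 2.17 ± 0.471 CPM in wildtype nerve (SD, n = 3 each). Mmp21 and Mmp27 were too low to be tested, each below 0.0403 CPM in every library.

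Timp3 and Timp2 led all 39 genes. Timp3 was at 704, 568 and 501 CPM in knockout nerve, against 668, 665 and 1109.7 CPM in wildtype nerve. Timp2 was at 301, 343 and 318 CPM in knockout nerve, against 275, 284 and 531 CPM in wildtype nerve. In both genes wildtype replicate 3 was the highest of all 6 libraries, as in Mmp14 and Mmp2, and knockout replicate 3 the lowest for Timp3. The groups overlapped for Timp2 and Timp3. The log2 fold change was −0.46 (SE 0.26) for Timp3 and −0.18 (SE 0.28) for Timp2. Without wildtype replicate 3 it was −0.18 for Timp3, and for Timp2 it turned to 0.19. Timp3 lies inside Syn3, a neuronal synapsin gene, with 21.3% of its exonic bases shared. Syn3 was at 41.2 ± 11.9 CPM in knockout nerve and 33.2 ± 7.08 CPM in wildtype nerve (SD, n = 3 each), far below Timp3. Timp1, the inducible inhibitor, was at 4.42, 3.76 and 3.76 CPM in knockout nerve and at 2.33, 3.71 and 2.98 CPM in wildtype nerve. Its groups did not overlap, but the lowest knockout value (3.76 CPM) was close to the highest wildtype value (3.71 CPM). The log2 fold change of 0.40 (SE 0.25) did not pass (edgeR, unadjusted p = 0.158). Timp4 was at 6.72, 9.69 and 7.90 CPM in knockout nerve and at 7.33, 11.1 and 8.80 CPM in wildtype nerve, with overlapping groups.

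**Figure D5:**
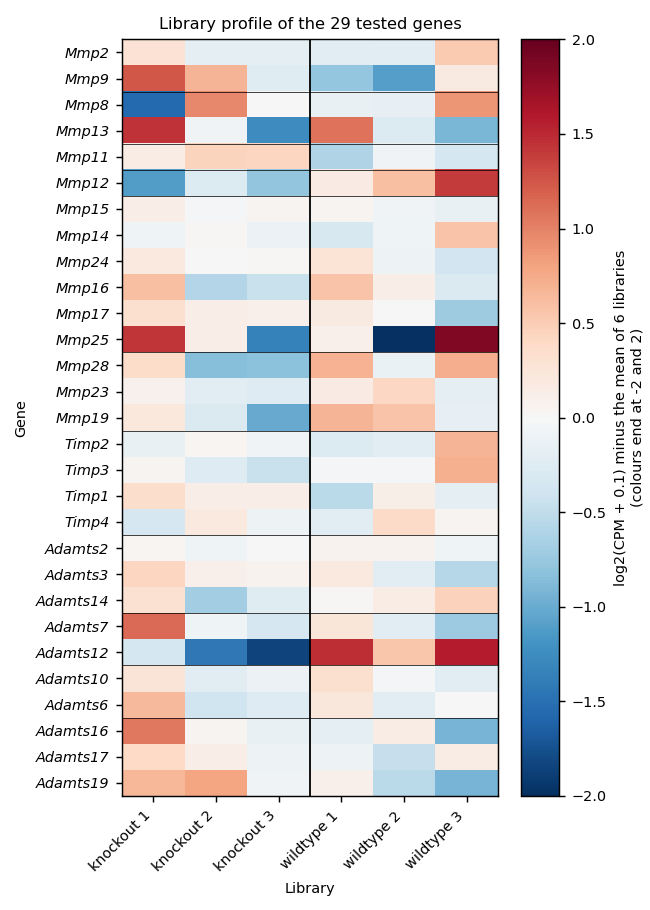
Level of each of the 29 tested genes in each library as log2(CPM + 0.1) minus its mean over the 6 libraries, with the 3 knockout libraries left of the 3 wildtype libraries. Wildtype replicate 3 is red for Mmp2, Mmp14, Timp2 and Timp3, and Adamts12 is blue in the knockout and red in the wildtype libraries.

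Adamts12, on chromosome 15 (11064773 to 11349232, GRCm38), showed the largest negative fold change of the 29 genes. The enzyme cuts cartilage oligomeric matrix protein and is known from cartilage and from fibroblasts. It was at 1.75, 0.780 and 0.557 CPM in knockout nerve (133, 72 and 48 counts), against 6.48, 3.37 and 6.94 CPM in wildtype nerve (540, 303 and 593 counts). The highest knockout library lay well below the lowest wildtype library. The mean was 1.03 ± 0.636 CPM in knockout nerve and 5.60 ± 1.94 CPM in wildtype nerve (SD, n = 3 each). The log2 fold change was −2.44 (SE 0.52) in edgeR, with an unadjusted p of 0.00248 and an adjusted p of 0.314. In DESeq2 it was −2.45 (SE 0.49) with an adjusted p of 0.000181. The authors' deposited table, from their own DESeq2 run, gives a smaller change of −1.33 (SE 0.27) and an adjusted p of 0.000252. The call thus differs between the tools. DESeq2 called it without each library in turn, at −3.07 to −2.15 and adjusted p from 9.65e-10 to 0.0189. No edgeR fit called it, and the lowest adjusted p was 0.187 among the fits that left out a library.

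The 5 fibroblast markers were also lower in sum, at 1401, 1636 and 1498 CPM in knockout nerve against 1928, 1864 and 1694 CPM in wildtype nerve, and all had negative fold changes with a median of −0.38. The 5 chondrocyte markers overlapped, at 204, 302 and 371 CPM in knockout nerve and 281, 263 and 382 CPM in wildtype nerve. None of either list was at 0 counts, and their part in the Adamts12 difference was not tested. Of the 6 nearest tested genes on chromosome 15, Rxfp3, a relaxin family receptor gene and the closest before the start of Adamts12, was also lower without overlap. Rxfp3 was at 1.23, 0.737 and 0.998 CPM in knockout nerve and at 6.24, 2.76 and 1.57 CPM in wildtype nerve with a log2 fold change of −1.84 (SE 0.54). Its adjusted p was 0.632 in edgeR and 0.0399 in DESeq2. The groups overlapped for Slc45a2, Tars, Npr3, Sub1 and Amacr. Of the Adamts12 exons, 0% overlap another gene, and no 50-base stretch of its longest transcript occurs in another gene. The promoter of Adamts12, the gene with the clearest difference, is printed from RefSeq, and it holds neither the AP-1 nor the TATAAA letters, so it has no capitals.
Adamts12 (chr15:11064523-11064822, GRCm38.p6, plus strand): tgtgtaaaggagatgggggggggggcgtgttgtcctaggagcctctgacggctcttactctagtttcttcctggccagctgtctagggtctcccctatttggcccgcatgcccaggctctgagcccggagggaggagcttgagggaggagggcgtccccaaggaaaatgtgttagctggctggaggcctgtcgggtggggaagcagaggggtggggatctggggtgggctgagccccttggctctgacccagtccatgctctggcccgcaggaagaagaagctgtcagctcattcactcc

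Adamts7, the closest relative of Adamts12 and also a protease of cartilage oligomeric matrix protein, had no such gap between the groups. It was at 6.23, 2.61 and 2.19 CPM in knockout nerve and at 3.30, 2.36 and 1.64 CPM in wildtype nerve. The groups overlapped, with knockout replicate 1 highest, and the log2 fold change was 0.60 (SE 0.48). Without knockout replicate 1 it was −0.02.

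Adamts13, the protease that trims von Willebrand factor and is known chiefly from the liver, was close to absent in wildtype nerve. It lies on chromosome 2 (26973361 to 27009625, GRCm38). It had 294, 8 and 64 counts in the knockout libraries (3.87, 0.0867 and 0.743 CPM), against 4, 1 and 1 counts in the wildtype libraries (0.0480, 0.0111 and 0.0117 CPM). Every knockout library lay above every wildtype library, but the knockout libraries differed widely from each other, and most of the counts came from replicate 1. The gene was too low for the filter in edgeR, and without the filter its adjusted p was 0.476 (log2 fold change 5.98, SE 1.48). DESeq2 called it (log2 fold change 6.07, SE 1.22, adjusted p = 0.000181), but not without knockout replicate 1 (4.14, adjusted p = 0.0709). The authors' deposited table, from their own DESeq2 run, gives a far smaller log2 fold change of 0.71 (SE 0.22) and an adjusted p of 0.0891. Fold changes against so few wildtype counts are imprecise. Of its 6 nearest tested genes, Slc2a6 and Adamtsl2, both after its end, were also higher in all knockout libraries, with log2 fold changes of 0.40 (SE 0.21) and 0.77 (SE 0.28) that did not pass. The groups overlapped for Rexo4, Surf4, Surf2 and Cacfd1.

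The procollagen N-proteinases remove the amino-terminal propeptide of fibrillar procollagens. Adamts2, the main enzyme of skin and tendon, was at 42.3, 39.1 and 41.0 CPM in knockout nerve and at 43.3, 43.2 and 39.1 CPM in wildtype nerve. These were among the most even values of the family, with a log2 fold change of −0.04 (SE 0.12). Adamts3, which also processes the lymphatic growth factor VEGF-C, was at 15.1, 11.99 and 11.8 CPM in knockout nerve and at 12.9, 9.74 and 7.49 CPM in wildtype nerve. The groups overlapped, and its log2 fold change was 0.37 (SE 0.24). Adamts14, the third of these enzymes, averaged 1.51 ± 0.558 CPM in knockout nerve and 1.98 ± 0.338 CPM in wildtype nerve (SD, n = 3 each), with overlapping groups. Adamts10, which binds fibrillin-1, was the most abundant ADAMTS gene of the 12 per kilobase, at 56.6, 40.6 and 43.7 CPM in knockout nerve and at 59.4, 46.9 and 40.8 CPM in wildtype nerve. Its relative Adamts6 was at 10.2, 4.86 and 5.41 CPM in knockout nerve and at 7.62, 5.52 and 6.54 CPM in wildtype nerve. The log2 fold changes of both were close to 0, at −0.06 (SE 0.20) and 0.05 (SE 0.33). Adamts6 and Adamts16 share chromosome 13 with Vcan, 14.5 and 18.8 Mb from it, and the groups overlapped for both.

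The remaining 4 ADAMTS genes were low. Adamts16 was at 5.22, 2.56 and 2.22 CPM in knockout nerve and at 2.17, 2.74 and 1.24 CPM in wildtype nerve. Adamts19 was at 2.68, 2.94 and 1.57 CPM in knockout nerve and at 1.78, 1.10 and 0.819 CPM in wildtype nerve. The groups overlapped for both: knockout replicates 2 and 3 lay among the wildtype values of Adamts16, and knockout replicate 3 among those of Adamts19. The log2 fold changes were 0.70 (SE 0.45) for Adamts16 and 0.96 (SE 0.41) for Adamts19, which had an unadjusted p of 0.0527 in edgeR. Adamts17 had a log2 fold change of 0.28 (SE 0.27). Adamts18 was not tested, with 31, 0 and 0 counts in knockout nerve and 6, 12 and 8 counts in wildtype nerve.

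Other genes that activate, inhibit or resemble these proteases were also followed, in lists written with earlier results of these data known. Of 45 such genes 41 were tested in edgeR, and 0 passed, against 0.138% of all genes tested. At an unadjusted p under 0.05 there were 2, beside 5.2% of all genes tested, and DESeq2 called 0, beside 1.36%. The groups did not overlap for 4 of the 41, or 9.76%, near the 10.3% of all genes: Adamtsl2 and Plg were higher, Adam9 and Adam17 lower. The counts are thus close to those over all genes. Their median log2 fold change was −0.10. The activators of pro-MMPs and the plasminogen system (11 tested) had a median of −0.10, the other inhibitors and clearance receptors (15 tested) −0.14, the ADAMTS-like proteins (5 tested) −0.09 and the related metalloproteases (10 tested) −0.08. Adamtsl2, an ADAMTS-like protein that binds fibrillin and has no protease activity, is the neighbour of Adamts13 named above. It was at 3.02, 3.75 and 5.31 CPM in knockout nerve and at 2.53, 2.27 and 2.28 CPM in wildtype nerve. All knockout libraries were higher, with a log2 fold change of 0.77 (SE 0.28) and, in edgeR, an unadjusted p of 0.0289 and an adjusted p of 0.842. Adam9, a membrane-bound protease of the ADAM family, was at 73.9, 75.3 and 64.2 CPM in knockout nerve and at 84.6, 85.6 and 123 CPM in wildtype nerve. All knockout libraries were lower, with a log2 fold change of −0.46 (SE 0.18), an unadjusted p of 0.042 and an adjusted p of 0.899 in edgeR. The genes with the highest mean over all libraries in the 4 lists did not pass: Bsg, an inducer of MMPs, had a log2 fold change of 0.01, the testican gene Spock3 0.31, Adamtsl5 −0.09 and the sheddase gene Adam10 0.06. The 7 versican-cleaving ADAMTS genes that the choice of members left out had a median log2 fold change of 0.13, and 0 of them passed in edgeR or DESeq2 or had an unadjusted edgeR p under 0.05. Their fold changes ran from −0.46 to 0.63, beside −2.44 to 0.96 for the 10 tested ADAMTS genes of the 12.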

How the data were processed

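The submitters' processing notes name the build mm10 and the tools HTSeq, a read counter, and DESeq2, without versions. Which aligner and strand setting were used is not stated there. The authors deposited raw counts per gene for 6 libraries. The same deposited table holds the authors' mean normalised counts (a signal), log2 fold changes with standard errors, a test score, p-values and adjusted p-values, which were used only where the text says so.

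Repeated symbols (5, with identical counts) were joined, leaving 24062. No pair of libraries of a group agreed within sampling noise. Genes were kept by filterByExpr (16722), scaled by TMM and tested in R 4.3.3 with edgeR 4.0.16 (robust quasi-likelihood, 2-sided, no covariate) across all genes, with Benjamini-Hochberg adjustment at 0.05. DESeq2 1.42.0 and limma 3.58.1 (voom) were alternatives, with other scalings, filters, a replicate block and each library left out. The SE is the size of the log2 fold change divided by the square root of F. The fits were tested on simulated counts. Each library is an animal, and dissection and library preparation add to the spread.

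Exon lengths, overlaps and shared 50-base stretches come from GENCODE vM21 (GRCm38), and coordinates from RefSeq (GRCm38.p6). The members, their role groups and the gene lists were chosen with earlier results of these data known. Members were named by a rule: those past a threshold, with an unadjusted p under 0.05, the 2 highest means of a role group, the 3 highest and 3 lowest fold changes, and all TIMPs. Mmp21, Mmp23, Mmp25, Mmp27, Adamts14, Adamts18, Ltf, S100a8, Ctsk, Dcstamp, Plg, Adam17, Lrp2 and the neighbours of Adamts12 and Adamts13 were named after their values were seen.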

Additional observations from a re-analysis of the deposited data

How the results depend on the processing

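No edgeR or limma-voom fit called any of the 39 genes, and DESeq2 called 2. Over all genes edgeR called 23, against 252 in DESeq2, 3 with the replicate block and 3 to 14 without 1 library. The replicate numbers come from the sample titles, and the descriptions number the same knockout libraries 1, 3 and 4, so a pairing by number is in doubt. Libraries with the same title number deviated from their group means with correlations of 0.486, 0.353 and −0.164, and the numbers were not taken to pair the samples. With the block 0 of the 39 genes were called, as without it. The median log2 fold change of the tested members stayed between −0.14 and 0.05 in the fits without 1 library. Of 322 log2 fold changes of 23 named genes under 14 alternatives, 15 changed sign. None of the 23 genes passed in the main edgeR fit, so the sign changes could fall only on genes that did not pass. Adamts6 was at −0.029 in limma-voom and −0.013 with the replicate block. The fits without 1 library gave −0.22 to 0.10 for Adamts10, −0.35 to 0.24 for Adamts6, −0.018 to 0.88 for Adamts7, −0.89 to 1.18 for Mmp13, −0.33 to 0.14 for Mmp14, −0.27 to 0.20 for Mmp2, −0.93 to 0.31 for Mmp8, −0.35 to 0.19 for Timp2 and −0.32 to 0.0079 for Timp4. The cause was not tested. DESeq2 without each library, chosen after seeing the data, called 2 or 3 members, beside 2 with all libraries. The share of all genes called in those fits is not given here, so the counts cannot be set against it. The median SE of the tested members was 0.32 on the log2 scale, which limits the changes that 3 animals a group can show.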
